A study of Homo sapiens with 6 samples.

Results

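The chromatin of the 4 human HOX clusters was examined in H1155, an established human lung carcinoma cell line, by ATAC-seq, in which a transposase cuts and tags DNA wherever chromatin is open. The members were the peaks that overlapped 4 fixed windows: HOXA, chr7:27130000-27260000; HOXB, chr17:46600000-46820000; HOXC, chr12:54320000-54460000; and HOXD, chr2:176940000-177060000. Merged over 6 libraries, these peaks made 127 regions of 149765 on chromosomes 1 to 22 and X, with 26 in HOXA, 35 in HOXB, 44 in HOXC and 22 in HOXD. The 38 HOX genes named with the windows, 10 in HOXA, 10 in HOXB, 9 in HOXC and 9 in HOXD, were used to describe where those regions lie.

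The study compared control H1155 cells with H1155 cells that express a chimera, titled TA, with 3 libraries of each, described as biological replicates and prepared by the Omni-ATAC protocol. The labels do not say what the chimera or TA is, which vector drives it, what the control cells carry, or whether either population is a clone. Each library had its own peak list, with 82 to 108 peaks in the HOX windows and 85730 to 109321 peaks in all. Control 2 had the fewest peaks and control 3 the most, and the chimera libraries lay between them. The background pileup, the level of overlapping sequenced fragments that the peak caller took as the genome-wide background of a library, ranged from 2.53 to 3.77 and stands in here for depth. The libraries are bulk material, so fewer cells with an open site and a less open site in each cell cannot be told apart.

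HOX genes encode homeodomain transcription factors that give cells their position along the head-to-tail axis of the embryo. Within a cluster the genes stand in numbered order, from the anterior genes of paralogue groups 1 to 3, through the central groups 4 to 8, to the posterior groups 9 to 13, and the order along the chromosome follows the order of expression along the body. Polycomb complexes keep clusters or parts of them silent and Trithorax-type complexes such as those of KMT2A keep them active, so adult cells hold a HOX pattern that reflects where they came from, and carcinomas often depart from it. The paralogues of a group, such as HOXA13, HOXB13, HOXC13 and HOXD13, descend from 1 ancestral gene.

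The positions were checked before genes were read from them. Peaks ran past the end of the chromosome on 14 of 23 chromosomes of GRCh38, by up to 2.71 Mb, and past the end on 0 of 23 chromosomes of hg19, so the positions fit hg19, the build of the windows. RefSeq gene starts, which were at hand for GRCh38.p14 only, were therefore matched to the peaks by spacing: in each cluster the constant offset was taken at which most starts within 3 Mb lay within 200 bp of a strong summit. At that offset 35 of 104 starts matched around HOXA, against 7 with no offset and 13 at the next best one. The same counts were 55 of 129 against 5 and 17 around HOXB, 95 of 215 against 7 and 23 around HOXC, and 34 of 94 against 1 and 10 around HOXD. All 38 genes then fell inside their windows. Distances to genes given here rest on this match and can be off by about 0.2 kb, the tolerance of the match.

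Promoters of the 4 clusters were open at some genes and had no peak at others, with the same 13 genes open in every library. A peak lay within 500 bp of the outermost start of 13 of 38 HOX genes in 6 of 6 libraries, of 5 genes in 1 to 5 libraries and of 20 genes in none. Of the anterior genes 1 of 7 had a peak in every library, of the central genes 3 of 15, and of the posterior genes 9 of 16. Among the other RefSeq starts within 3 Mb of the clusters, 262 of 487 (53.8%) had a peak in every library. The offset of each cluster had been chosen to put most starts within 3 Mb near strong summits, these and listed HOX starts among them. The 53.8% is therefore not independent of the choice of offset. That share counts every listed start once, whereas the HOX share of 34.2% takes each gene at its outermost start only. The joint start of HOXC4, HOXC5 and HOXC6 enters the HOX share once for each of them, so the shares have unlike units. With any start of a gene counted, 15 of 38 HOX genes had a peak in every library. These shares describe these genes and were not tested. A gene without a peak was below the calling threshold in that library and was not shown to be closed.

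The DNA around 4 starts is printed to show starts with and without a peak, rich and poor in CG pairs. Each is RefSeq sequence of GRCh38.p14, 250 bases before to 50 bases after the start, read 5′ to 3′ on the gene's strand, with every CG dinucleotide in capitals. HOXA13 (minus strand) and HOXD1 (plus strand) had a peak in 6 of 6 libraries, and HOXA7 (minus strand) and HOXD4 (plus strand) had none.
HOXA13: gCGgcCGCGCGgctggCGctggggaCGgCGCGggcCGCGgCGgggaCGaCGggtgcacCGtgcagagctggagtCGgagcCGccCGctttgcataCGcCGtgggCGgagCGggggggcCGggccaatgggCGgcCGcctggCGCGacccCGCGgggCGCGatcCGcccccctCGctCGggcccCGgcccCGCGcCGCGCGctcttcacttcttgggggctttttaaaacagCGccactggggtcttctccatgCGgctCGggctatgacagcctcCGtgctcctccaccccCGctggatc
HOXD1: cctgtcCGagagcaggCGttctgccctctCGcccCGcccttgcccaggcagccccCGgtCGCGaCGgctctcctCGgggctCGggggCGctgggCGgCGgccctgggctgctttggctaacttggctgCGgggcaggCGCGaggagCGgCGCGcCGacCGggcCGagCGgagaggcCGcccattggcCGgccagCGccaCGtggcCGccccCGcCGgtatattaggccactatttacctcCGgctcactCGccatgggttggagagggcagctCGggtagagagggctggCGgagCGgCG
HOXA7: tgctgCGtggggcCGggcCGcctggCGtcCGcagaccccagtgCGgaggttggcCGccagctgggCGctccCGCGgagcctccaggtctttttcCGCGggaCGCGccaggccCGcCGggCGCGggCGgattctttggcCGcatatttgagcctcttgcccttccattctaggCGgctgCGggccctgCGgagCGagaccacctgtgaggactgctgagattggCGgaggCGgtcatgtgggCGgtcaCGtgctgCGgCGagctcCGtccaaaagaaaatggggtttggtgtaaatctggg
HOXD4: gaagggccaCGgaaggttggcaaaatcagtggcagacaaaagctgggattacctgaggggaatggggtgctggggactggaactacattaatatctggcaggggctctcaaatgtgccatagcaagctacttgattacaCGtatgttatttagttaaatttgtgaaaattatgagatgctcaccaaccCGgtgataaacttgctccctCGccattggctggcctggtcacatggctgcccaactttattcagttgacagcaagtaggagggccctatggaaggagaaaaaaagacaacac

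A CG pair reads the same on both strands, and stretches rich in it, called CpG islands, mark many promoters that can be open in most cells. HOXA13 held 44 CG pairs in the 300 bases, a number reached by 4.19% of the 35116 promoters of the RefSeq table. HOXD1 held 36, reached by 12.7%. HOXD4 held 4, reached by 75.5%. HOXA7 had no peak although it held 31 CG pairs, reached by 20.7% of promoters. The table had a promoter for 18 of the 38 genes: the 6 with a peak in every library had a median of 30.5 CG pairs and the 10 with none a median of 20.5, while the median of all promoters was 14. The ranges overlapped, from 13 at HOXA11 to 44 in the open set and from 4 to 31 at HOXA7 in the other.

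The largest folds at starts were those of the posterior genes HOXA13 and HOXC13 and of the anterior gene HOXD1. The fold is the authors' own value for each peak, the pileup at the summit over the library's local background, and it serves here to describe peaks. At HOXA13, a gene of limb and urogenital development, the fold was 11.0, 9.66 and 11.0 in control libraries 1 to 3 and 9.21, 9.72 and 9.63 in chimera libraries 1 to 3. At HOXC13, which is needed for hair and nail formation, it was 11.7, 8.89 and 10.6 in control and 10.1, 9.71 and 8.78 in chimera libraries. Both starts overlapped between groups and exceeded the library's median fold over regions called in all 6 libraries, which was 6.31 to 8.22, in every library. HOXB13, a prostate and hindgut gene, had folds of 9.55, 6.37 and 8.61 in control and 5.18, 5.98 and 6.71 in chimera libraries. HOXD9 lay between 7.64 and 8.64 with both groups mixed, and HOXD11 between 4.74 and 6.13.

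Weaker posterior starts were those of HOXB9, HOXA10, HOXA11 and HOXC10. HOXB9 had folds of 5.26, 3.86 and 4.84 in control and 5.54, 5.68 and 5.05 in chimera libraries. HOXA10 and HOXA11, both genes of uterine and limb development, ranged from 3.27 to 4.7 and from 2.81 to 3.71, and HOXC10 from 3.31 to 4.48. The remaining posterior genes, HOXA9, HOXC9, HOXC11, HOXC12, HOXD10, HOXD12 and HOXD13, had no peak at the outermost start in any library. HOXD13 differs from the others in that another listed start inside the gene had a peak in all 6 libraries.

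Among the central genes, HOXB5, HOXB6 and HOXD8 had a peak at the start in every library. HOXB5, a gene expressed in the developing lung, had folds of 5.0, 4.8 and 4.04 in control and 4.05, 4.24 and 4.52 in chimera libraries. HOXB6 ranged from 2.82 to 3.45 and HOXD8 from 2.18 to 3.61. The HOXB7 start had a peak in 3 of 3 control libraries, with folds of 3.16, 2.52 and 2.8, and in 0 of 3 chimera libraries. HOXB8 had a peak in control 3 alone, at 2.99. The outermost start that RefSeq gives to HOXC4, HOXC5 and HOXC6 together had a peak in control 3, at 2.21, and in chimera 1, at 2.55. HOXA4, HOXA5, HOXA6, HOXA7, HOXB4, HOXC8 and HOXD4 had none.

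The anterior end was open at HOXD1. Its start had folds of 11.4, 7.72 and 12.02 in control and 10.2, 11.0 and 8.59 in chimera libraries, as high as at HOXA13, with the groups mixed. HOXA2, HOXA3, HOXB1, HOXB2, HOXB3 and HOXD3 had no peak at the outermost start in any library. HOXA3 has 7 listed starts over 45.6 kb of gene, and inner ones had a peak in all 6 libraries.

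**Figure D1:**
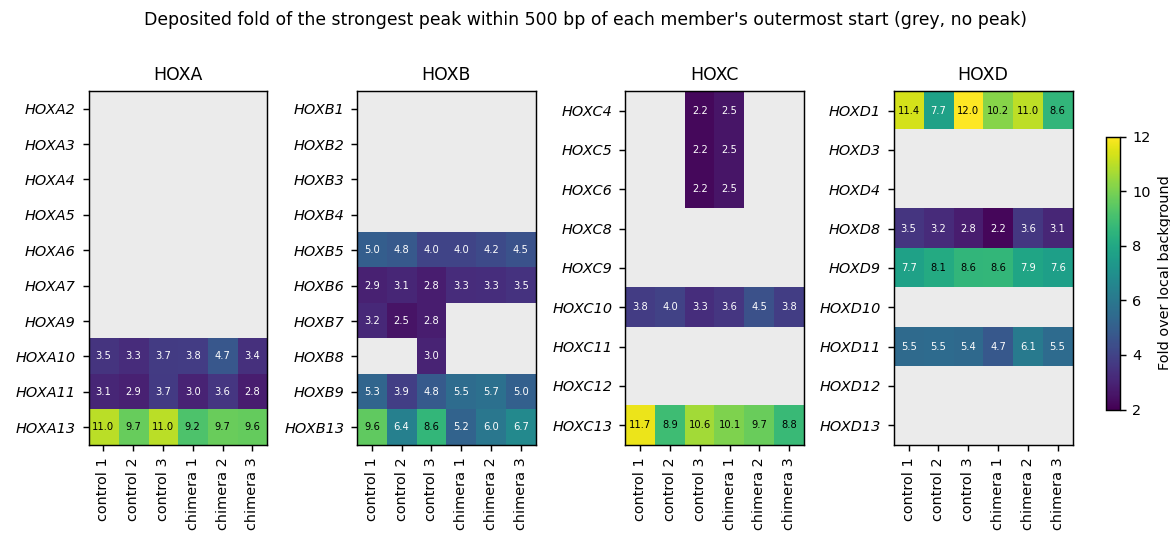
Each cell gives the deposited fold over local background (colour and number) of the strongest peak within 500 bp of the outermost start of a HOX gene in 1 library, and grey cells had no peak. The filled rows are the same in nearly all columns, and HOXB7, HOXB8 and the joint start of HOXC4, HOXC5 and HOXC6 are the rows filled in part.

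The number of HOX genes with a peak at the start was 14, 14 and 18 in control libraries and 16, 13 and 13 in chimera libraries. The groups overlapped, and the difference in means of 1.33 fewer genes in chimera libraries did not exceed the spread within groups (two-sided exact permutation p = 0.5, where 3 against 3 libraries cannot give less than 0.1). The difference was 0 without control 3. At the posterior genes the number was 9 in each of the 6 libraries.

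The clusters also carry microRNA genes, whose products repress HOX messages among others. Their mature sequences are shown, from RefSeq (GRCh38.p14), 5′ to 3′ with the seed, bases 2 to 8, in capitals, because the microRNAs at the 2 hairpins with a peak in every library share their seed.
hsa-miR-196a-5p: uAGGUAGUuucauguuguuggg
hsa-miR-196b-5p: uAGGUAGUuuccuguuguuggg
hsa-miR-615-3p: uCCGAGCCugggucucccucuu
hsa-miR-10a-5p: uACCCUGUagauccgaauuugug

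MIR196B, in HOXA between HOXA9 and HOXA10, had a peak within 500 bp of its hairpin with folds of 3.5, 3.27 and 3.87 in control and 4.11, 2.98 and 3.06 in chimera libraries. MIR196A2, in HOXC between HOXC9 and HOXC10, had folds of 2.9, 2.68 and 2.83 in control and 2.0, 2.09 and 2.96 in chimera libraries. Both sets of values overlapped between the groups. MIR196A1 in HOXB, the other hairpin that yields miR-196a-5p, had no peak in any library. MIR615 in HOXC had a weak peak in control 2, control 3 and chimera 3, at 2.14 to 2.2. MIR10A in HOXB and MIR10B in HOXD had none.

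The 4 clusters were not equally filled with peaks. Peaks covered 8.76 ± 1.15% of the HOXD window, 7.59 ± 0.967% of HOXC, 7.37 ± 0.833% of HOXA and 5.35 ± 0.706% of HOXB (mean ± SD, n = 6 libraries), against 1.26% to 1.75% of the genome. HOXD was covered more than HOXC in 6 of 6 libraries, by 1.18 ± 0.539 percentage points (mean ± SD of the difference). HOXB was covered less than each other cluster in 6 of 6 libraries, by 3.41 ± 0.744 points against HOXD, 2.23 ± 0.44 against HOXC and 2.02 ± 0.548 against HOXA. Each of these pairs, and HOXA against HOXD, had an exact sign-flip permutation p of 0.0312, two-sided, the smallest that 6 libraries can give, and 0.0375 after Benjamini-Hochberg adjustment over the 6 pairs. HOXA and HOXC could not be told apart: HOXA was lower by 0.218 ± 0.486 points and higher in 2 of 6 libraries (exact p = 0.344). The windows were fixed and are of 130 kb for HOXA, 220 kb for HOXB, 140 kb for HOXC and 120 kb for HOXD. That of HOXB spans the long gap between HOXB9 and HOXB13, where few peaks were called. The sizes depended on the windows. With 20 kb added on each side the 5 pairs kept their direction and an adjusted p of 0.0375, but the differences were then −1.73 points for HOXB minus HOXD, −1.16 for HOXB minus HOXC, 0.604 for HOXA minus HOXB and −0.568 for HOXC minus HOXD.

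**Figure D2:**
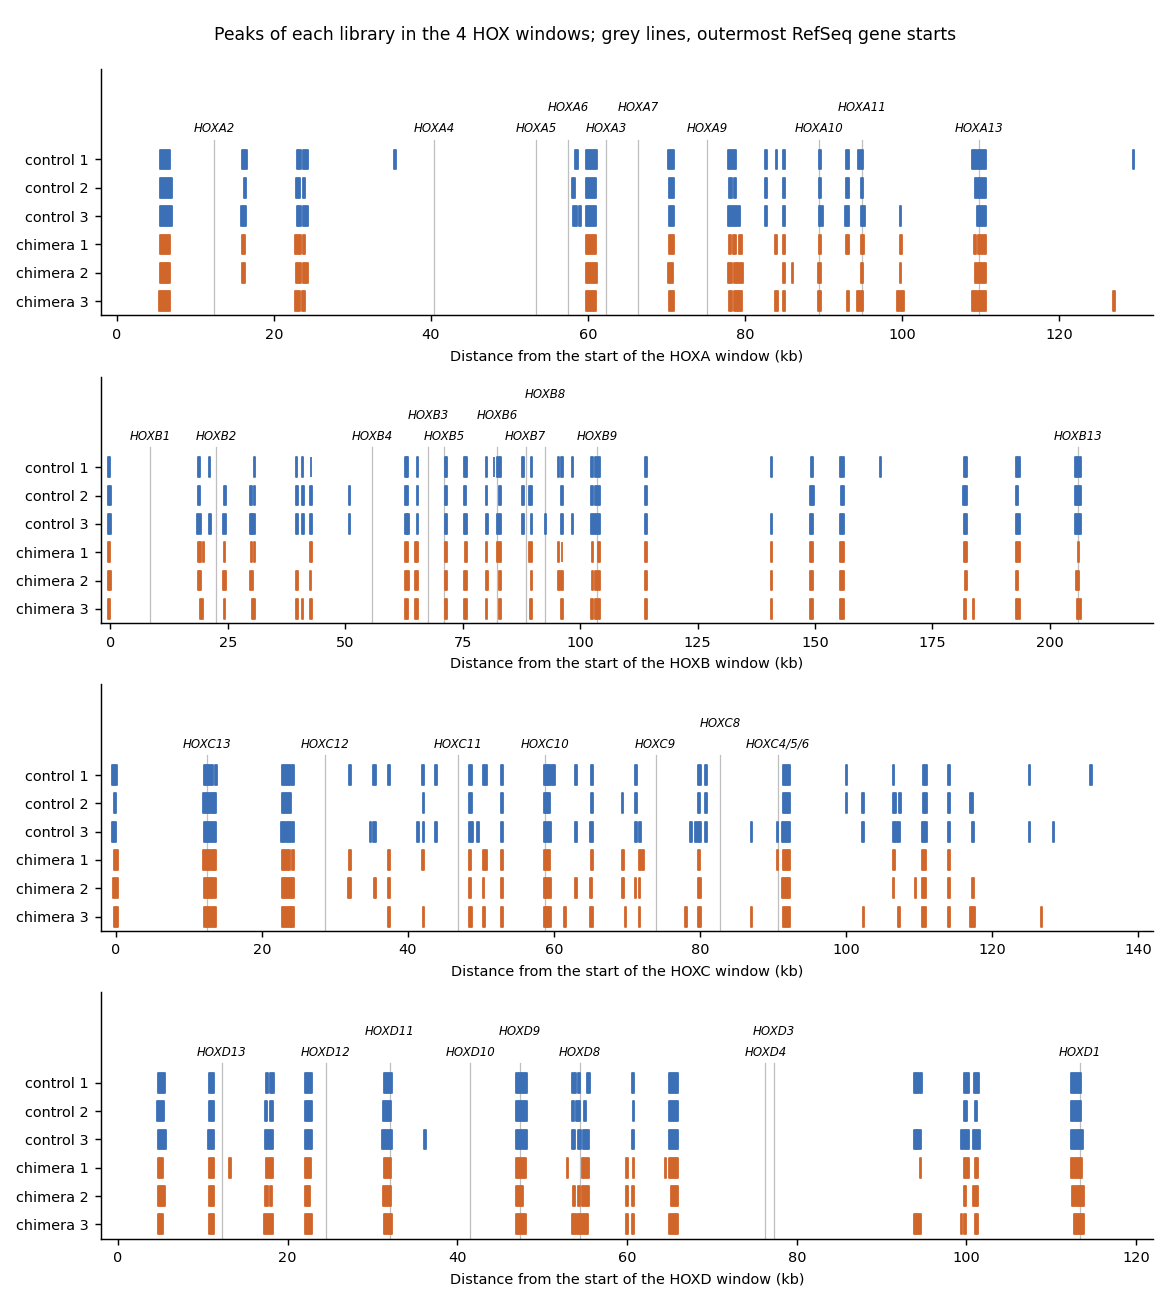
Boxes are the peaks of each library (rows; blue, control; orange, chimera) by distance in kb from the start of each window, and grey lines are the outermost gene starts. Most boxes line up down the 6 rows, HOXC holds many short ones in 1 or a few rows, and the stretch before HOXB13 is nearly empty.

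Regions recurred across libraries to different degrees. Of the 127 regions, 55 (43.3%) were called in all 6 libraries, against 37.8% of regions in the genome. The share was 59.1% in HOXD (13 of 22), 57.1% in HOXB (20 of 35), 42.3% in HOXA (11 of 26) and lowest in HOXC (11 of 44). Regions called in a single library made up 31.8% of HOXC (14 of 44), 23.1% of HOXA, 18.2% of HOXD and 11.4% of HOXB, against 29.7% of the genome. HOXC had the most regions and the lowest share called in every library. These shares are descriptions, since regions of a cluster share their libraries.

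The strongest regions of each cluster, by the lowest −log10 q over the 6 libraries, were partly at starts and partly between genes. In HOXA they were the HOXA13 start (chr7:27239611-27240760), a region 3.8 kb from the HOXA7 start with folds of 6.9 to 8.97 (chr7:27200182-27200978), and the region at the anterior end of the window, 5.3 kb from the HOXA2 start (chr7:27135388-27137060). In HOXC they were the HOXC13 start (chr12:54331965-54333809), a region 0.6 kb from the joint start of HOXC4, HOXC5 and HOXC6 (chr12:54411158-54412358), and a region inside HOXC4 (chr12:54430317-54431015) with folds of 6.37 to 7.6. In HOXD they were the HOXD9 start (chr2:176986865-176988241), a region 1.6 kb from HOXD12 with folds of 8.04 to 10.7 (chr2:176962007-176962892), and a region 10.2 kb from HOXD4 with folds of 5.67 to 6.43 (chr2:177004898-177006025).

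In HOXB all 3 lay away from the starts. The largest fold of any HOX region was at chr17:46713735-46714347, 10 kb from the HOXB9 start on the side of HOXB13, with 15.3, 14.8 and 17.5 in control and 11.4, 14.3 and 11.2 in chimera libraries. The other HOXB regions of this rank were 49.8 kb from HOXB13, in the gap, with folds of 9.88 to 14.2 (chr17:46755361-46756261), and 8.2 kb from HOXB1 at the edge of the window, with folds of 10.8 to 16.2 (chr17:46599399-46600207). The widest regions were 1861 bp in HOXC, 4.1 kb from HOXC12 (chr12:54342595-54344455), 1673 bp in HOXA near HOXA2, 1542 bp in HOXD at the HOXD1 start (chr2:177052333-177053874) and 1518 bp in HOXB near HOXB2. Region widths are those of peaks merged over the 6 libraries, and this HOXB region joins separate short peaks. The control 3 peak at the HOXB9 start, 103.099 to 104.323 kb from the window start, was wider than any single peak joined there. Over all HOX regions called in 6 libraries the median width was 700 bp, against 739 bp in the genome.

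Control and chimera cells were compared first by how much of each cluster was called as open. The number of HOXA peaks was 20, 16 and 18 in control and 18, 18 and 19 in chimera libraries, and that of HOXD peaks 17, 16 and 20 against 19, 17 and 18. HOXC had 29, 22 and 35 peaks in control and 23, 25 and 27 in chimera libraries. HOXB had 32, 28 and 35 in control and 28, 27 and 27 in chimera libraries, a difference in means of 4.33 fewer peaks (31.7 ± 3.51 against 27.3 ± 0.577, SD, n = 3 each, exact permutation p = 0.2, two-sided, 0.8 after adjustment over the 4 clusters). The groups overlapped or touched in all 4 clusters.

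Covered length separated the groups in HOXB alone among the clusters, without passing the test. HOXB peaks covered 12.2, 11.4 and 14.6 kb in control and 10.1, 11.0 and 11.3 kb in chimera libraries, so every chimera library was below every control library. The means were 12.7 ± 1.69 and 10.8 ± 0.616 kb (SD, n = 3 each, exact permutation p = 0.1, two-sided, the smallest possible, and 0.4 adjusted over 4 clusters), with mean peak widths of 413 ± 28.4 and 409 ± 27.5 bp. Without control 3, which had the most peaks of all libraries, the difference fell from 1.93 to 0.978 kb. Covered length overlapped between groups in HOXA (8.29 to 10.9 kb in control, 8.58 to 10.2 kb in chimera libraries), HOXC (9.18 to 13.1 and 9.66 to 10.4 kb) and HOXD (8.98 to 12.6 and 9.47 to 11.5 kb), with exact permutation p of 0.7, 0.5 and 0.7 (two-sided).

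**Figure D3:**
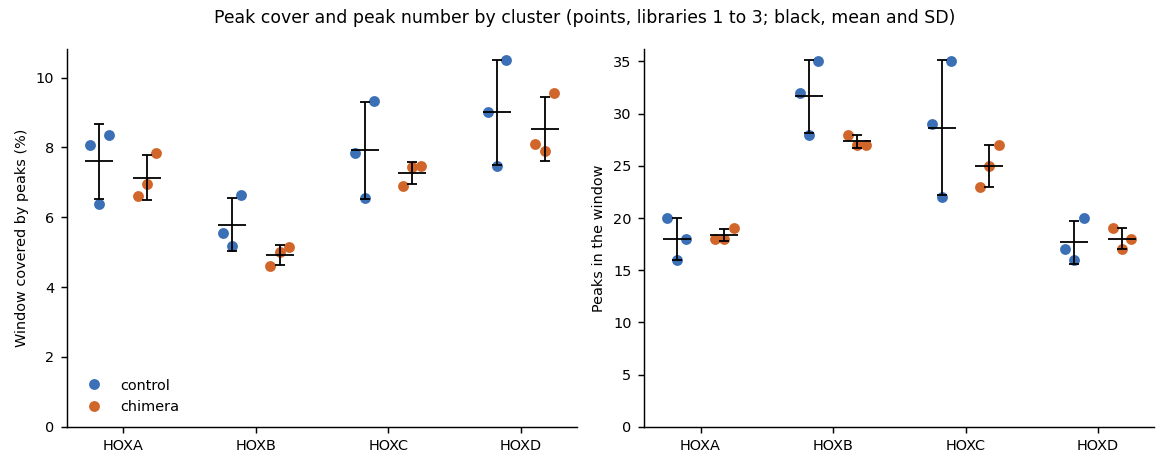
Points are the 3 control (blue) and 3 chimera (orange) libraries, black lines the mean and SD (n = 3), for the percentage of each window covered by peaks (left) and the number of peaks (right). The groups overlap except for HOXB cover, where the chimera libraries lie from 4.6% to 5.14% and the control libraries from 5.17% to 6.65%.

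Few HOX regions were present in 1 group and absent from the other. There were 4 regions with a peak in 3 of 3 control and 0 of 3 chimera libraries, 3.15% of the 127, against 0.799% of all regions in the genome. In the opposite direction there was 1 region, 0.787%, against 0.621% in the genome. With 3 libraries in each group no single region can reach p under 0.1, so these are counts without a test. The 5 regions had low folds, between 2.32 and 3.43, and local backgrounds of 11.9 to 44.8, against library medians of 5.58 to 7.34 over regions called in all 6 libraries. The counts moved with single libraries. Without control 2 the number called in control libraries only was 8. The number called in chimera libraries only was 3 without control 1 and 4 without control 3.

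The 4 regions called in control libraries only lay in the middle of HOXA, HOXB and HOXC. The HOXB region was the HOXB7 start (chr17:46687589-46688120), where summit pileups of 70, 50 and 80 fragments stood over local backgrounds of 21.4, 19.3 and 28.0 in control libraries 1 to 3. A HOXA region 0.6 kb from the HOXA6 start, within the long HOXA3 gene (chr7:27188035-27188698), had folds of 3.43, 3.33 and 2.64. A region over HOXA10, 1.2 kb from its inner start (chr7:27212559-27212824), had folds of 2.65, 2.83 and 2.77 and the lowest −log10 q of 14.7, the highest of the 5 regions. The HOXC region, 1.8 kb from HOXC8 (chr12:54400663-54400888), had folds of 2.35, 2.8 and 2.32.

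The region called in chimera libraries only was in HOXD, 5.4 kb from HOXD8 towards HOXD4 (chr2:176999835-177000123). Its folds were 3.06, 2.99 and 2.88 in chimera libraries 1 to 3, with summit pileups of 60, 54 and 61 over local backgrounds of 18.9, 17.4 and 20.6. A stronger region called in all 6 libraries (chr2:177000547-177000873) stood beside it, with folds of 5.07, 2.85 and 3.98 in control and 3.62, 3.64 and 3.54 in chimera libraries. Only 1 of the 5 regions, that of HOXB7, lay within 500 bp of a HOX start.

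At the 55 HOX regions called in every library, fold and width overlapped between groups. The median fold was 5.26, 4.56 and 5.06 in control and 4.95, 5.17 and 5.05 in chimera libraries, which is 0.616 to 0.752 of each library's median over all 56679 regions called in 6 libraries. On the log2 scale, less that library median, the chimera libraries were higher by 0.14 (means −0.44 ± 0.04 against −0.58 ± 0.12, SD over 3 libraries each, two-sided exact permutation p = 0.2). Measured by the summit pileup in place of the fold, they were lower by 0.11 (exact permutation p = 0.2), so the sign turned with the measure. Median width was 519, 442 and 600 bp in control and 514, 569 and 554 bp in chimera libraries (log2 difference after centring 0.1, exact permutation p = 0.2).

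Region by region, 7 of the 55 had folds that were higher in every chimera than in every control library after division by the library's median, a pattern shown by 9.5% of all regions called in 6 libraries. The opposite pattern was shown by 3 of the 55, against 6.99% of all such regions. By summit pileup the counts were 3 higher (9.28% of all regions) and 6 lower (9.82%). All these counts were within a few regions of the genome's share and were not tested, so no direction is read from them. The counts also moved with single libraries. Without control 2 the higher count was 20, without chimera 2 it was 12 and without chimera 3 it was 11. The lower count was 6 without control 1 or chimera 2 and 5 without control 3 or chimera 3.

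The widest separation upwards was at chr7:27189781-27191204, which covers an inner start of HOXA3. Its folds were 6.39, 5.16 and 6.65 in control and 6.99, 7.06 and 6.64 in chimera libraries, while its summit pileups of 99, 67 and 135 against 91, 89 and 106 overlapped. The next were the HOXB9 start (chr17:46703099-46704323), named above, and the widest HOXB region, 2.6 kb from HOXB2 (chr17:46618379-46619896). The latter joins separate short peaks, and each library is given by its strongest peak there. Those folds were 2.51, 2.75 and 2.64 in control and 3.58, 3.48 and 3.79 in chimera libraries, without overlap before or after division by the median. The pileups were 32, 32 and 43 against 39, 36 and 60. These values do not all come from the same site. The chimera 3 peak began 19.05 kb from the window start, whereas the control peaks used ended at 19.0, 18.999 and 18.783 kb. The region at the anterior end of HOXA, 5.3 kb from HOXA2, was higher by both measures, with folds of 7.44, 7.27 and 8.48 against 10.9, 9.02 and 9.18 and pileups of 80, 74 and 105 against 108, 91 and 108.

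All 3 regions with lower folds in the chimera libraries lay at the posterior ends of HOXB and HOXD. At chr17:46781613-46782312, 23.8 kb from HOXB13, the folds were 9.74, 7.82 and 10.9 in control and 5.47, 8.06 and 5.47 in chimera libraries, and the summit pileups 51, 42 and 68 against 29, 33 and 34. The HOXB13 start itself (chr17:46805410-46806619) had pileups of 63, 46 and 67 in control and 37, 29 and 55 in chimera libraries. After division by the library's median, both regions were lower in every chimera library by fold and by pileup, HOXB13 by a margin of 0.012 on the log2 scale between the nearest folds. A region 0.9 kb from HOXD13 (chr2:176950647-176951309) had folds of 7.3, 5.67 and 7.75 against 5.37, 6.25 and 5.79, and its pileups overlapped.

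**Figure D4:**
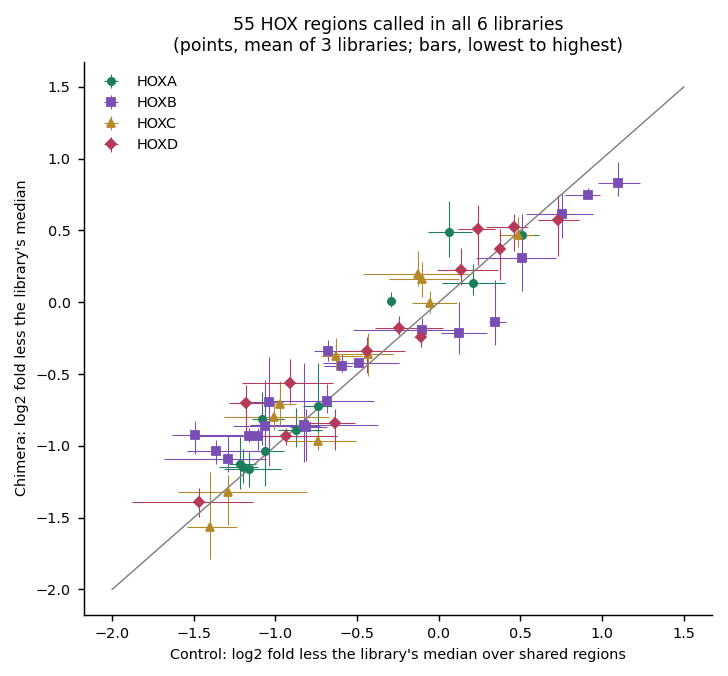
Each point is 1 of the 55 HOX regions called in all 6 libraries: log2 fold less the library's median in control (horizontal) and chimera (vertical) libraries, mean of 3, with bars from the lowest to the highest library and the line of equality. Most points follow the line, and the points of HOXB13 and of the region 23.8 kb from it lie below it.

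The HOX regions lay in stretches of high local background. The local background, the level of fragments around a summit that the peak caller divides by, was recovered from the deposited fold and p. Its median over the 55 regions was 12.2, 10.6 and 15.5 in control and 12.2, 10.5 and 14.2 in chimera libraries, 1.87 to 2.22 times the library's median over all regions called in 6 libraries. Of the 55 regions, 45 exceeded that library median in 6 of 6 libraries and 23 exceeded it more than 2 times in 6 of 6. The summit pileups of the HOX regions were 1.25 to 1.51 times the library median, and their folds 0.616 to 0.752 of it. The fold is formed from summit pileup and local background, so these values are tied by construction. Why the folds were low was not tested.

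In each cluster the region with the highest local background lay in the interior, though not every interior region was high. The largest ratio to the library median, as the geometric mean over 6 libraries, was 4.87, at a region inside HOXA10 (chr7:27214841-27215165). In HOXC the highest was 4.21, at the region 0.6 kb from the joint start of HOXC4, HOXC5 and HOXC6, and in HOXB 3.61, near HOXB6. HOXD reached 3.6 between HOXD8 and HOXD4. The lowest ratios, 0.588 in HOXB, lay in the gap before HOXB13. Against each library's genome-wide background, the local background of the peaks was 5.53 ± 0.95 times in HOXC, 4.78 ± 1.05 in HOXA, 4.12 ± 0.823 in HOXB and 3.34 ± 0.308 in HOXD (mean ± SD, n = 6 libraries). All pairs differed in 6 of 6 libraries (exact sign-flip permutation p = 0.0312, two-sided, 0.0375 adjusted over 6 pairs) except HOXB against HOXD (5 of 6, 0.0625 adjusted). HOXD had the largest mean covered share and the lowest mean local background.

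Between groups, the median local background at regions called in all 6 libraries did not overlap in HOXA and HOXB, with the chimera libraries at the lower values. In HOXA the median local background, on the log2 scale less the library median, was 1.38, 1.13 and 1.48 in control and 1.05, 1.06 and 1.05 in chimera libraries, a difference of −0.27. In HOXB it was 1.0, 0.93 and 1.16 against 0.75, 0.84 and 0.91, a difference of −0.2. In both clusters every chimera library was below every control library (exact permutation p = 0.1, two-sided, the smallest possible, 0.2 adjusted over 4 clusters). The differences were −0.06 in HOXC (exact permutation p = 0.6) and −0.03 in HOXD (exact permutation p = 0.6), with the groups mixed. Whether the clusters differ in this was not tested. The local background was not among the planned measures. With only peaks of −log10 q of at least 10, the difference was −0.25 in HOXA (exact permutation p = 0.4, adjusted over 4 clusters). In HOXB it was then −0.0792 (exact permutation p = 0.667, adjusted). Over all peaks of a cluster and relative to the genome-wide background, the groups overlapped in HOXA, at 5.81, 4.1 and 6.4 in control and 4.03, 4.29 and 4.03 in chimera libraries (exact permutation p = 0.2, two-sided, 0.4 adjusted over 4 clusters). On that scale HOXB had 4.69, 3.86 and 5.51 against 3.33, 3.77 and 3.56, without overlap (exact permutation p = 0.1, 0.4 adjusted).

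Of the 55 regions, 17 had a lower local background in every chimera than in every control library, against 9.99% of all regions called in 6 libraries, and 2 had a higher one, against 8.37%. The 17 were 7 of 11 in HOXA, 7 of 20 in HOXB, 3 of 11 in HOXC and 0 of 13 in HOXD. In HOXB the 6 consecutive regions called in all libraries from the HOXB5 start to a region 3.3 kb from HOXB8 were among them. In HOXA so were the 5 consecutive ones from a region 2.7 kb from HOXA9 to the HOXA11 start. Neighbouring regions share part of the stretch from which the background is taken and are not independent. At the HOXB6 start the background was 24.0, 20.2 and 31.2 in control and 18.6, 18.0 and 21.3 in chimera libraries. At the region inside HOXA10 with the largest ratio it was 32.5, 28.7 and 39.5 against 26.6, 25.9 and 29.7. Control 3 was highest at both, and without it the differences of the medians were −0.14 in HOXA and −0.132 in HOXB.

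**Figure D5:**
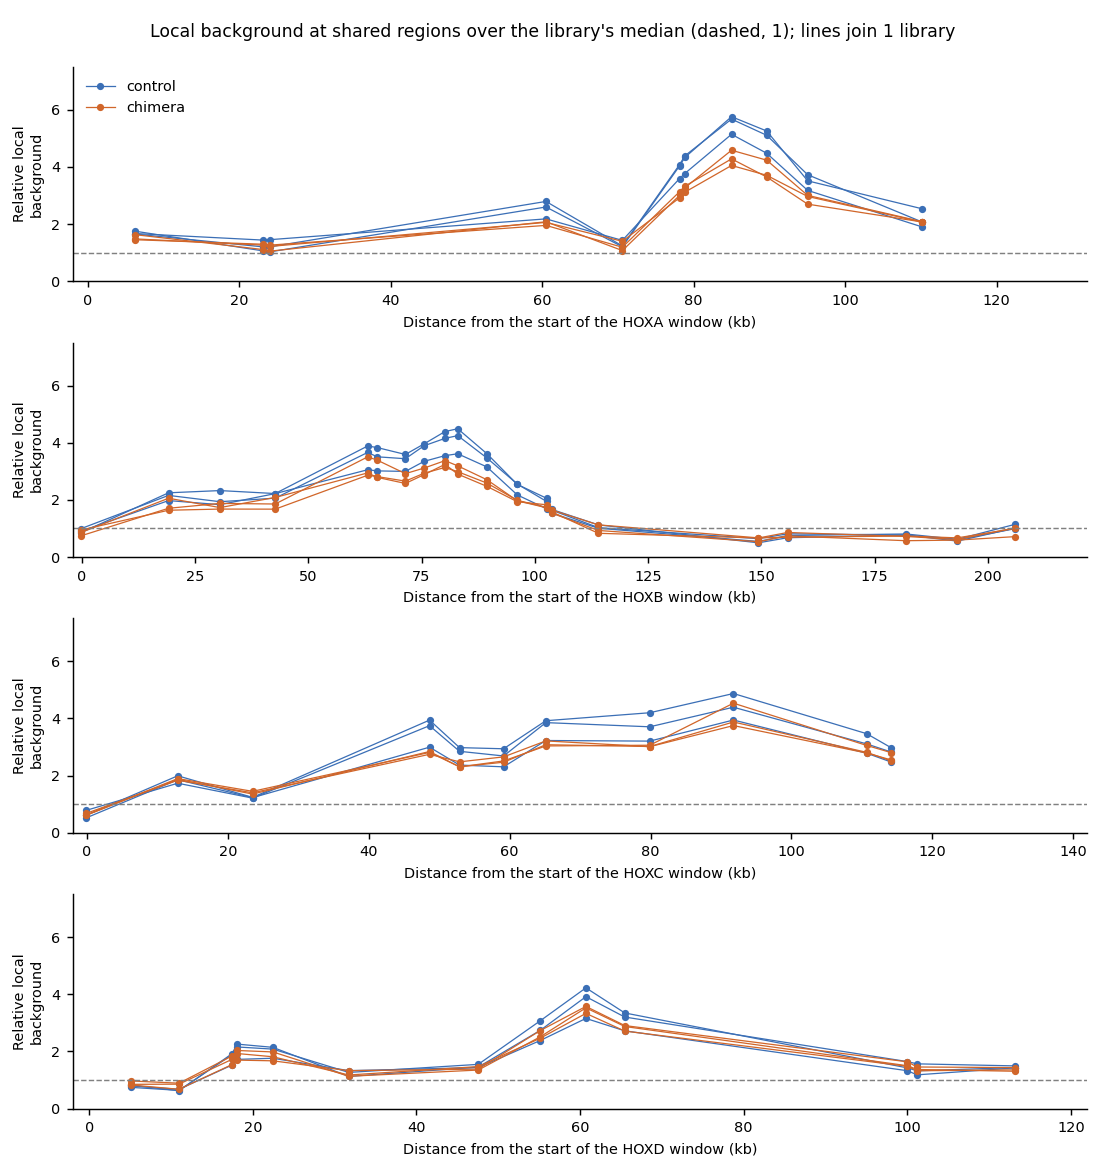
Local background at each HOX region called in all 6 libraries, divided by the library's median over all such regions in the genome (dashed line at 1), by distance in kb from the start of each window, with a line for each control (blue) and chimera (orange) library. The ratio rises to between 4 and 6 in the interior of HOXA and falls below 1 in the HOXB gap, and the chimera lines run below the control lines from HOXB5 to HOXB8 and from HOXA9 to HOXA11.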

How the data were processed

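Open chromatin was measured by ATAC-seq in 3 control and 3 chimera-expressing libraries of H1155 cells, grouped by the genotype label. The authors deposited 1 narrowPeak list per library, with peaks called by MACS2 on single libraries, per the file names and peak names. Column 7 is the authors' fold, a ratio of summit pileup to local background. Columns 8 and 9 are the deposited −log10 p and −log10 q, and column 5 is a deposited integer score that was not used further. The submitters' processing notes name HOMER 4.9 and GRCh38 without a role. Of the aligner, read filters, transposase shift, MACS2 version and settings, nothing is stated, so they count as not given in the sources used here. If reads were not shifted for the transposase, peak edges and summits move by a few bases, which is small beside the peak widths.

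The lists keep only peaks that passed a threshold, with least significant q values of 0.0183 to 0.0407, so a region without a peak has no value. Peaks on chromosomes 1 to 22 and X were joined into regions at an overlap of 1 bp or more, and presence in a library meant at least 1 overlapping peak. A region's fold in a library was that of its strongest peak, which can lie at different sites of the region in different libraries. Summit pileup and local background were solved from the fold and the p by MACS2's Poisson formula, for all 589440 peaks to within 0.005. They stand in for depth only if the settings were the same in all libraries. Per-library values were centred on the library's median over regions called in all 6 libraries. Groups were compared by exact permutation tests over libraries, two-sided, and clusters by exact sign-flip permutation over 6 libraries, both with Benjamini-Hochberg adjustment at 0.05. P-values measure the spread between these libraries of 1 cell line. No library pair held identical folds. Same-numbered libraries did not deviate together (correlations of −0.00547, −0.0592 and −0.0145), so the numbers were not used to pair them.

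Gene starts came from a RefSeq table of GRCh38.p14, matched by spacing with steps of 25 bp to summits with −log10 q of at least 10, and sequences came from RefSeq. Named regions were those called in all libraries of 1 group and none of the other, the 3 with the highest lowest −log10 q and the widest of each cluster, and up to 3 per direction whose centred folds did not overlap, by the size of the gap. Other regions described, at HOXA10, HOXB6 and HOXD8, were named after their values were seen. HOX cofactors, cluster regulators and cell type markers were not examined, since no annotation of the files' build was used, so the lung carcinoma label was not checked against markers. The members and lists were chosen with earlier results of these data known. The code was tested on simulated data. Python 3.11.15, pandas 2.3.3, numpy 2.4.6, scipy 1.17.1 and matplotlib 3.10.9 were used.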

Additional observations from a re-analysis of the deposited data

How the results depend on the processing

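The 26 results were recomputed under 16 settings, which gave 275 alternative values: 210 were classed as unchanged, 30 lost the threshold, 22 moved and 13 changed sign. A difference was classed as unchanged if it kept its side of the threshold and did not change sign, which includes differences that vanished. A count was classed as unchanged if it stayed within a fixed ratio of the main value, and as moved otherwise. All 30 were the 5 differences in covered share between clusters with 1 library left out, where 5 libraries allow no adjusted p under 0.075. Their sizes then ranged from 1.87 to 2.18 points for HOXA minus HOXB, −1.49 to −1.24 for HOXA minus HOXD, −2.4 to −2.15 for HOXB minus HOXC, −3.63 to −3.21 for HOXB minus HOXD and −1.32 to −0.989 for HOXC minus HOXD. These ranges do not cover the other settings, in which the 5 pairs kept their adjusted p of 0.0375 with other sizes. With windows widened by 20 kb they were 0.604, −1.13, −1.16, −1.73 and −0.568 points in the same order, and with a −log10 q of 10 or more 1.27, −1.95, −1.18, −3.22 and −2.05. The difference HOXA minus HOXC became positive under 2 settings, at 0.0972 (−log10 q of at least 10) and 0.266 (equal list lengths).

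No difference between groups could pass 0.05 with 3 libraries against 3, so these are changes of sign or size. When peaks needed a −log10 q of 10 or more, the difference in HOXA peaks was −2.33, that in fold −0.0645 and that in width −0.0732. Width also turned to −0.0781 where peaks up to 1 kb apart were merged, and fold to −0.114 where the recovered pileup replaced it, a measure added after seeing the data. With 1 library left out, the difference in peaks ranged from −0.667 to 1.33 in HOXA and from −0.5 to 1.5 in HOXD (−0.167 without chimera 1). Covered length ranged from −1.86 to 0.0825 kb in HOXC and from −1.51 to 0.316 kb in HOXD, and the HOXD local background from −0.098 to 0.0137. The causes were not tested.

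Regions called in chimera libraries only numbered 0 at −log10 q of at least 10, 2 with lists of equal length, 0 with peaks up to 1 kb apart merged, 3 where peaks had to cover at least 50% of a region, and 1 to 4 with a library left out. Those in control libraries only numbered 2 at −log10 q of at least 10, 1 with 1 kb merging and 4 to 8 with a library left out. Under the first 2 settings the other group can hold weaker peaks there. Regions with higher chimera folds numbered 3 by recovered pileup and 8 to 20 with a library left out, those with lower folds 6 and 3 to 6. Fewer libraries overlap less often by construction.

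With a replicate block the numbers were 6 regions gained and 12 lost in at least 2 of 3 pairs and the opposite in none, and 12 higher and 6 lower in all 3 pairs. The block changed no other call, and the numbers do not pair the libraries. The 13 genes with a peak at the start in every library were 10 to 17 under other thresholds, start positions and distances. Depth limits the weak regions, since the lists hold no value below the calling threshold and a region missing from a list can still hold signal.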
